A study of Mus musculus with 12 samples.

Results

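Endocrine transcription factors are the DNA-binding proteins that establish and keep the identity of the hormone-producing cells of the pancreatic islet. The 9 described here are Pdx1, Mafa, Nkx6-1, Nkx2-2, Neurod1, Isl1, Pax6, Rfx6 and Foxa2. They were found by gene name in the authors' deposited comparison table, which lists 13703 genes, and each name matched 1 row. Of 49315 genes in the count file, 13115 had enough counts to be tested, and all 9 were among them. None of the 9 passed the test between treatments.

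The libraries came from islets of female NOD/ShiLtJ wild-type mice, a strain in which lymphocytes infiltrate the islets and diabetes follows. In the anti-CD3 group, mice received 2.5 mg/kg of an antibody that binds CD3, a part of the T cell receptor. In the IgG group they received IgG on the same schedule. Treatment was weekly for 4 weeks, began at 9 weeks of age in mice with normal blood glucose, and islets were taken 2 to 3 days after the last dose. Each group had 6 libraries of polyadenylated RNA. The labels do not say whether a library came from 1 mouse or from several, and p-values therefore measure the spread between these samples, which may be technical.

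Pdx1, Nkx6-1, Nkx2-2, Isl1 and Pax6 are homeodomain proteins, and Isl1 carries LIM domains and Pax6 a paired domain beside it. Mafa is a basic leucine zipper protein, Neurod1 a basic helix-loop-helix protein, Rfx6 a winged-helix protein of the RFX family and Foxa2 a forkhead protein. Foxa2 acts early, opening chromatin in the endoderm, and is also made in exocrine cells. Pdx1 patterns the pancreas bud and in the adult activates insulin and glucose-sensing genes in beta cells. Neurod1, Nkx2-2, Isl1, Pax6 and Rfx6 are made in several endocrine cell types, where they promote hormone cell differentiation. Nkx6-1 and Mafa are, in the adult mouse islet, largely beta cell factors, and Mafa marks the mature beta cell and binds the insulin promoter.

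All 9 genes are protein-coding, and coordinates here are on GRCm38 from GENCODE M21. Nkx2-2 (ENSMUSG00000027434, 147177546 to 147194243), Foxa2 (ENSMUSG00000037025, 148042877 to 148046969), Neurod1 (ENSMUSG00000034701, 79452521 to 79456751) and Pax6 (ENSMUSG00000027168, 105668900 to 105697364) lie on chromosome 2. Pdx1 (ENSMUSG00000029644, 147269959 to 147275848) and Nkx6-1 (ENSMUSG00000035187, 101658139 to 101664996) lie on chromosome 5. Mafa (ENSMUSG00000047591) lies on chromosome 15 from 75745490 to 75748228, Isl1 (ENSMUSG00000042258) on chromosome 13 from 116298281 to 116309689, and Rfx6 (ENSMUSG00000019900) on chromosome 10 from 51677756 to 51730432. The values sum reads over each gene, and 5 of the 9 overlap no other annotated gene. Neurod1 shares exon sequence with Cerkl on the same strand, which had 419 counts over the 12 libraries against 4560 for Neurod1. Pdx1 lies across from the antisense gene Plut, with 392 counts against 1599 for Pdx1, and their exons do not overlap. The labels do not give the strand setting of the counting, so reads may be mixed where an antisense gene shares exon sequence. Among the 9 this holds for Nkx2-2, with Nkx2-2os (2 counts), and for Neurod1, with Gm26755 (5 counts).

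Promoter sequences from RefSeq (GRCm38.p6) were matched by symbol for 8 of the 9 genes, all but Mafa. Isl1 and Pax6 are shown because their profiles over the libraries were the closest of any pair of the 9 genes after Nkx6-1 and Neurod1. Pdx1 is shown because it had the lowest fold change. Each runs 5′ to 3′ on the strand of its gene and ends where transcription starts in RefSeq or GENCODE, whichever comes first. Capitals mark TAAT, read on either strand, the core letters bound by homeodomain proteins.
Isl1, chr13:116309690-116309938, minus strand: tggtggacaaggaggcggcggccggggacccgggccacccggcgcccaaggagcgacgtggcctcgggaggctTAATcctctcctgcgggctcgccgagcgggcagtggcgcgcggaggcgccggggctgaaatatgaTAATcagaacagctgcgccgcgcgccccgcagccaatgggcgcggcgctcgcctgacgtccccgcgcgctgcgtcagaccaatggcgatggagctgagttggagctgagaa
Pax6, chr2:105668646-105668895, plus strand: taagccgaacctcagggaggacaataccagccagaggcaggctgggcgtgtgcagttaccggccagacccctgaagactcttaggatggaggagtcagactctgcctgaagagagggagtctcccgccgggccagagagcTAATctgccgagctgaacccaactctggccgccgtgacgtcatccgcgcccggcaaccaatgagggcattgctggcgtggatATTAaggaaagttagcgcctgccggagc
Pdx1, chr5:147269847-147269958, plus strand: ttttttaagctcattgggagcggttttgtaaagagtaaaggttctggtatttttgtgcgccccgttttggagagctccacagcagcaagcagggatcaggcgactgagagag

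The Isl1 and Pax6 stretches each hold 2 such matches, and the Pdx1 stretch holds 0. Over the 250 bases before the first RefSeq start listed for each gene, TAAT was present in 5 of the 8 genes matched, and in 55.3% of the promoters of 27025 mouse genes read the same way. TGCTGA, the core letters of Maf recognition elements, was present on either strand in 2 of the 8, Nkx6-1 and Neurod1, against 15.8% of all promoters. CAGATG, an E-box of the kind bound by Neurod1, was present in 1, Nkx2-2, against 14.5%. TGTTTAC, a forkhead motif, was present in 0 of the 8, against 3.09%. For Nkx6-1, Nkx2-2 and Rfx6 the whole window lies inside the gene as GENCODE places it. The TAAT matches of Nkx2-2 and Rfx6, the CAGATG match of Nkx2-2 and the TGCTGA matches of Nkx6-1 and Neurod1 lie past the GENCODE start. These matches describe letters in short windows, and the motifs do not overlap each other in the sequences shown.

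Exocrine RNA made up most of nearly every library and the 9 genes took a small share of the counts. The 35 acinar genes, all detected, took 69.6% to 73.6% of the counts in anti-CD3 libraries and 32.7% to 72.5% in IgG libraries, with the lowest values in IgG 6 and IgG 5. Islet hormone genes (Ins1, Ins2, Gcg, Sst, Ppy, Pyy and Iapp, with Ttr, a transport protein gene) were present in every library, at 0.966% to 2.04% in anti-CD3 and 1.24% to 3.88% in IgG. Total counts were 10994337 to 19284740 in anti-CD3 and 11891132 to 17628347 in IgG. The 9 transcription factor genes together had 875 to 3362 counts in anti-CD3 and 1967 to 4683 in IgG, or 79.6 to 193 CPM (counts per 1e6 counts) in anti-CD3 and 129 to 330.1 CPM in IgG. The lowest single value was 17 counts, for Rfx6 in anti-CD3 5, with an exact Poisson 95% interval of 9.90 to 27.2 counts that covers counting error only. In bulk RNA, fewer cells of a type and less RNA per cell cannot be told apart.

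The level of each gene is given first, as the authors' deposited normalized count divided by the length of its merged exons in kilobases. Neurod1 was highest, at 118 ± 40.5 per kilobase in anti-CD3 and 135 ± 31.1 in IgG (SD, n = 6 each). It lay above Pax6 in 11 of 12 libraries. Pax6, at 79.4 ± 18.7 in anti-CD3 and 87.4 ± 18.2 in IgG, and Nkx6-1, at 78.5 ± 36.2 in anti-CD3 and 86.1 ± 22.2 in IgG, could not be ordered, since each was above the other in 6 libraries. Rfx6 was lowest, at 14.96 ± 6.91 in anti-CD3 and 15.2 ± 4.67 in IgG. Nkx2-2, at 27.4 ± 7.77 in anti-CD3 and 28.1 ± 6.76 in IgG, lay above Rfx6 and below Foxa2 in all 12 libraries.

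The middle of the order held Mafa, Pdx1, Isl1 and Foxa2, in an order that varied between libraries. By its mean Mafa ranked 2 of 9 in anti-CD3, at 79.6 ± 47.3 per kilobase, next to Pax6 and Nkx6-1, and 7 of 9 in IgG, at 47.0 ± 16.2. The anti-CD3 rank rested on anti-CD3 3, without which Mafa was at 65.4 ± 35.8 (SD, n = 5) and ranked 4, below Pax6 at 72.9 and Nkx6-1 at 71.7. Nkx6-1 lay above Mafa in 10 of 12 libraries, 4 of them anti-CD3. Pdx1 ranked 6 in anti-CD3, at 47.0 ± 6.85 per kilobase, and 4 in IgG, at 64.3 ± 13.6. Mafa lay above Pdx1 in 4 of 6 anti-CD3 libraries and in 2 of 6 IgG libraries, so their order did not hold in either group. Isl1 had 49.7 ± 12.1 per kilobase in anti-CD3 and 51.5 ± 8.24 in IgG, and Foxa2 had 43.0 ± 14.2 in anti-CD3 and 47.8 ± 11.2 in IgG. Isl1 lay above Foxa2 in 9 of 12 libraries and below Pdx1 in 7 of 12. The exon length matters most for Pax6, whose merged exons cover 11.7 kb against 4427 bases in its longest transcript. Per length of the longest transcript Pax6 was the highest of the 9, at 209.8 ± 49.5 in anti-CD3 and 231 ± 48.0 in IgG, and stood above Neurod1 in all 12 libraries. By that length Isl1 also rose, to 78.2 ± 19.1 in anti-CD3 and 81.0 ± 13.0 in IgG. It then lay above Mafa in 8 of 12 libraries and below Nkx6-1 in 6 of 12. By the same length Nkx2-2 lay below Foxa2 in 10 of 12 libraries.

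**Figure D1:**
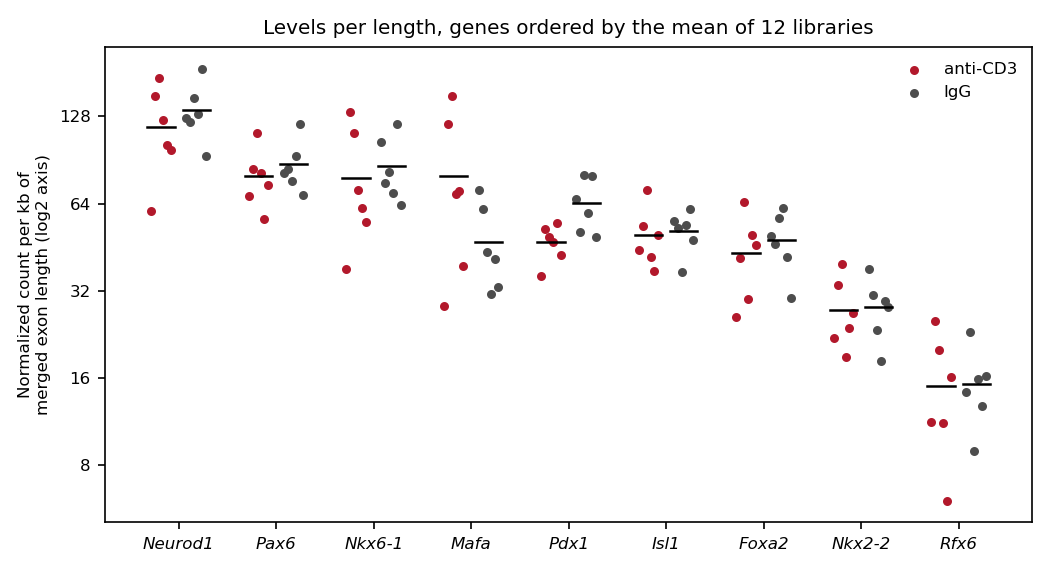
Deposited normalized counts per kilobase of merged exon length on a log2 axis, with each library as a point (red anti-CD3, grey IgG, 6 each) and group means as bars. Neurod1 is highest and Rfx6 lowest in both groups, while the Mafa mean stands at 79.6 in anti-CD3 and 47.0 in IgG.

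The series was set up to measure the effect of anti-CD3 treatment on islet RNA. By edgeR's quasi-likelihood test with Benjamini-Hochberg adjustment over all genes, 0 of the 9 passed an adjusted p of 0.05, where 0.0762% of all genes tested passed. With DESeq2, 0 passed against 3.78% of genes, and with limma-voom 0 passed against 1.03%. In the authors' deposited table, 0 of the 9 had an adjusted p under 0.05, against 4.55% of the genes given one. At an unadjusted p under 0.05, 1 of the 9 was lower (Pdx1, against 8.68% of genes lower) and 0 were higher (against 9.68%, or 18.4% in either direction). Fold changes were negative for 8 of the 9 (for 1 of the 9 when libraries were scaled to pan-endocrine genes), against 55.2% of all genes, with a median of -0.12 on the log2 scale against -0.05 over all genes. When 1 library was left out, 5 to 8 of the 9 were negative, with 5 without anti-CD3 1, 4 or 5. The median then ran from -0.25 without anti-CD3 3 and -0.20 without IgG 6 to -0.0099 without anti-CD3 1 and -0.0072 without IgG 5. It was -0.05, -0.05 and -0.04 without anti-CD3 4, 5 or 6 and -0.05 without IgG 1. The groups overlapped for all 9 genes, while for 1.2% of genes every anti-CD3 library was above, and for 0.64% below, every IgG library.

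Pdx1 had the lowest fold change of the 9. Its normalized counts were 77.6 at the lowest, 104 at the median and 118 at the highest in anti-CD3, against 106, 136 and 173 in IgG. All 6 anti-CD3 libraries lay below the IgG median and 4 of them below every IgG library, while 4 IgG libraries lay above every anti-CD3 library. The log2 fold change was -0.44 ± 0.17 (SE, n = 6 per group; edgeR adjusted p = 0.198), with a 95% interval of -0.81 to -0.08. That interval is for this gene alone and is not adjusted for the number of genes tested. Pdx1 was also the only gene of the 9 with a smaller spread in anti-CD3 than in IgG, with a coefficient of variation of 14.6% in anti-CD3 against 21.1% in IgG. Its value was -0.22 ± 0.21 when libraries were scaled to pan-endocrine genes (SE; edgeR adjusted p = 0.619).

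Mafa had the only positive fold change. Its normalized counts were 77.6, 191 and 413 in anti-CD3 (lowest, median and highest), against 85.1, 116 and 196 in IgG. The anti-CD3 libraries spanned a 5.32-fold range and lay on both sides of the IgG libraries, with anti-CD3 2 and anti-CD3 3 above every IgG library and anti-CD3 1 below every one. The log2 fold change was 0.78 ± 0.38 (SE, n = 6 per group; edgeR adjusted p = 0.290), with a 95% interval from 0.975-fold to 3.01-fold. Without anti-CD3 3 it was 0.49, and without IgG 5 and IgG 6 it was 0.62 (edgeR adjusted p = 0.501 and 0.685).

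Mafa and Pdx1 were then set against each other within each library, a comparison chosen after their values were seen and given with no test. The normalized count of Mafa divided by that of Pdx1 was 1.00, 2.91, 3.91, 1.86, 1.64 and 1.16 in anti-CD3 1 to 6, against 1.37, 1.53, 0.688, 0.664, 0.659 and 0.854 in IgG 1 to 6. Mafa exceeded Pdx1 in IgG 1 and IgG 2 as well, so the groups overlapped. A ratio within a library does not depend on how the library is scaled.

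**Figure D2:**
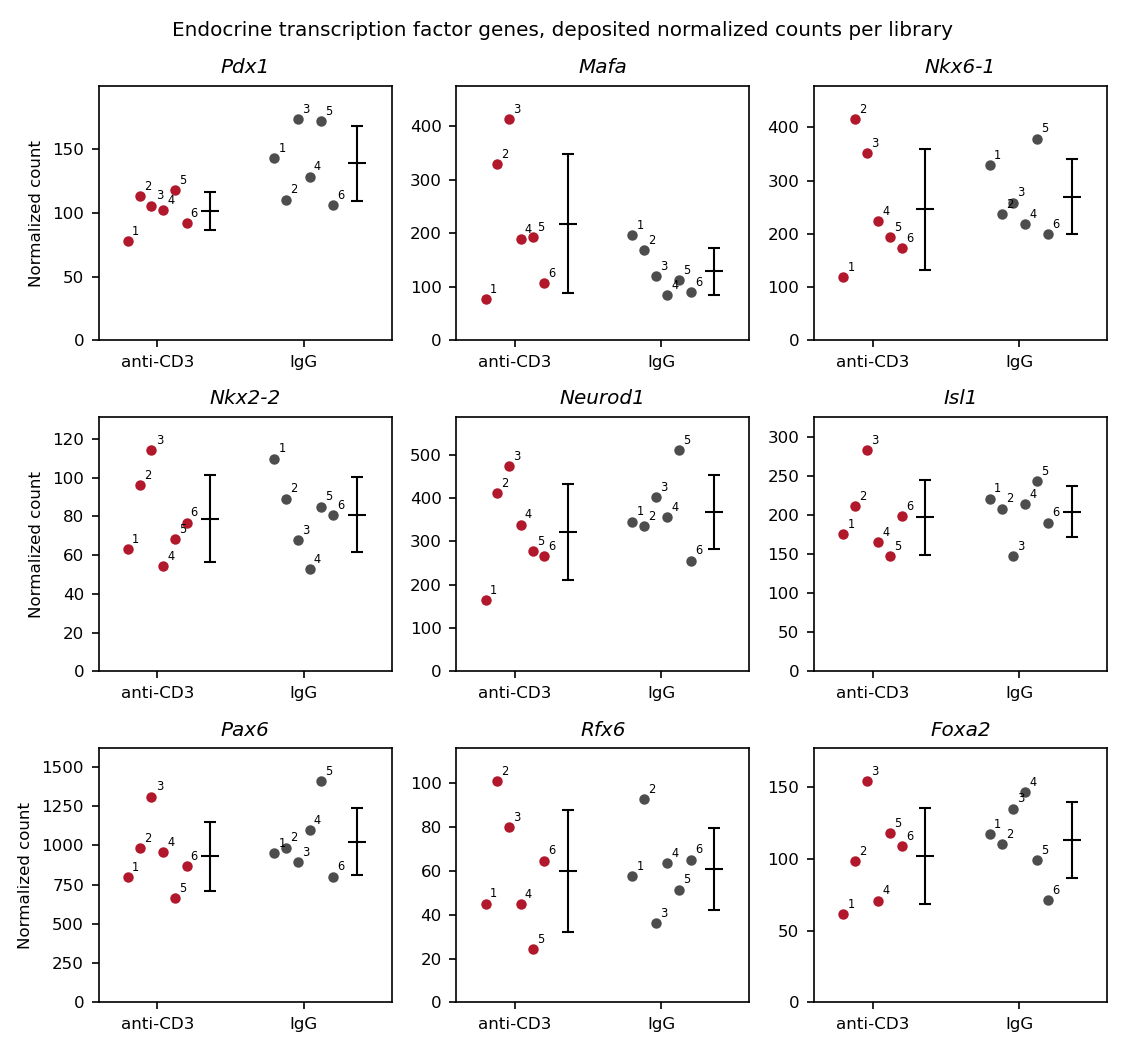
Deposited normalized counts of the 9 genes, with each library as a point labelled by its number and the group mean ± SD beside it (6 anti-CD3, left, and 6 IgG, right, in each panel). Pdx1 points of anti-CD3 lie between 77.6 and 118 and Mafa points between 77.6 and 413, and the groups overlap in every panel.

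The other beta cell factor, Nkx6-1, had 119, 209 and 415 normalized counts in anti-CD3 (lowest, median and highest) against 199, 248 and 379 in IgG. Anti-CD3 libraries lay above, among and below the IgG libraries, and the log2 fold change was -0.12 ± 0.28 (SE; edgeR adjusted p = 0.842). Nkx6-1 shared its highest 2 anti-CD3 libraries, anti-CD3 2 and anti-CD3 3, and its lowest, anti-CD3 1, with Mafa.

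Like Nkx6-1, the factors made in several endocrine cell types had values closer to 0 than Pdx1 and Mafa. Neurod1 had 164, 309 and 473 normalized counts in anti-CD3 against 256, 351 and 511 in IgG, a log2 fold change of -0.18 ± 0.23 (SE; edgeR adjusted p = 0.696). Pax6, with the most reads of the 9, had 663, 911 and 1308 in anti-CD3 against 800.3, 968 and 1407 in IgG, a log2 fold change of -0.13 ± 0.18 (SE; edgeR adjusted p = 0.715). Both genes had 4 of 6 anti-CD3 libraries below the IgG median. Isl1 had 148, 187 and 283 in anti-CD3 against 147, 211 and 243 in IgG, with a log2 fold change of -0.04 ± 0.17 (SE; edgeR adjusted p = 0.908). Nkx2-2 had 54.5, 72.5 and 114 in anti-CD3 against 52.8, 82.8 and 109.7 in IgG, with -0.03 ± 0.22 (SE; edgeR adjusted p = 0.954). For Isl1 and Nkx2-2 no anti-CD3 library lay below every IgG library and 1 lay above, and the 95% interval of Isl1 ran from 0.751-fold to 1.25-fold.

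Rfx6, which acts early in endocrine differentiation, had the lowest counts of the 9. It had 24.1, 54.9 and 101 normalized counts in anti-CD3 against 36.02, 60.5 and 92.6 in IgG, and its log2 fold change of -0.01 ± 0.31 (SE; edgeR adjusted p = 0.990) had a 95% interval from 0.628-fold to 1.57-fold. Foxa2, the forkhead factor, had 61.4, 104 and 154 in anti-CD3 against 71.5, 114 and 146 in IgG, with -0.14 ± 0.23 (SE; edgeR adjusted p = 0.773). When the mean level of the acinar genes entered the fit, Foxa2 was at -0.42 ± 0.25 (SE; edgeR adjusted p = 0.645).

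**Figure D3:**
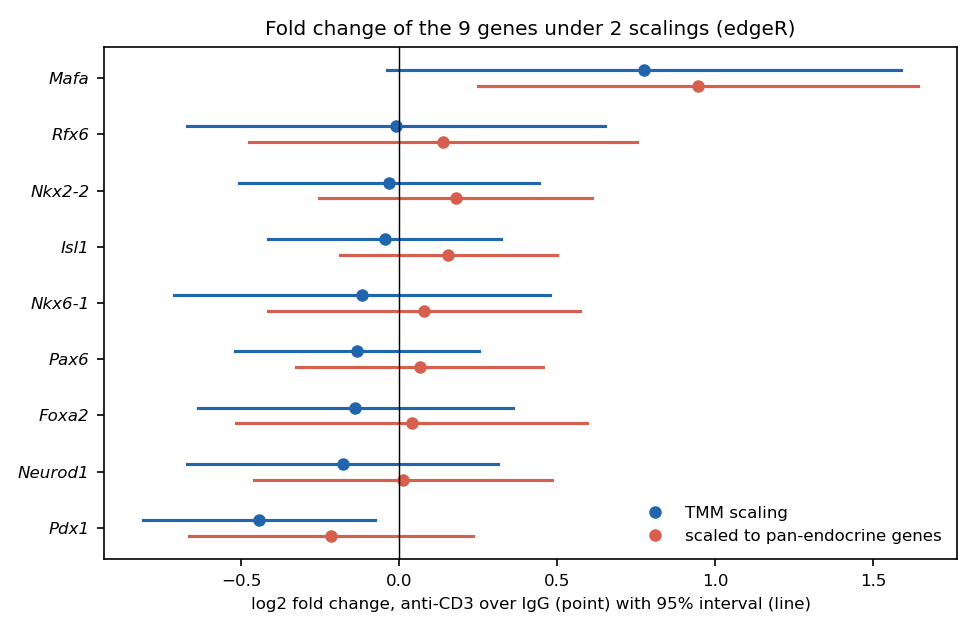
Fold changes on the log2 scale, anti-CD3 over IgG, of the 9 genes (points) with 95% intervals (lines), from edgeR with TMM scaling (blue) and with libraries scaled to pan-endocrine genes (red). Under TMM the values run from -0.44 for Pdx1 to 0.78 for Mafa, and under the other scaling 8 of the 9 are above 0.

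The level of islet genes differed between libraries, so the 9 were also read against 21 pan-endocrine secretory genes. Most encode granins, prohormone processing enzymes or exocytosis proteins of islet hormone cells, and others, such as Gad1, Celf4 and Uchl1, do not. The mean log2 CPM of those 21 genes was 5.31 to 5.94 in anti-CD3 and 5.64 to 6.13 in IgG. With each library scaled to make that level equal, 0 of the 9 genes passed edgeR over all genes, where 0.0229% of genes passed. The fold change became positive for 8 of the 9, with a median of 0.08. Without IgG 6 it was positive for 4 of the 9, with a median of -0.0011, and without anti-CD3 2 for 5. Without anti-CD3 3 the median was 0.019 and without anti-CD3 1 it was 0.18. The median of all genes moved as well, to 0.17, and 33.1% of all genes had negative values. Mafa was at 0.95 ± 0.33 (SE; edgeR adjusted p = 0.160), with a 95% interval from 1.19-fold to 3.12-fold that is not adjusted for the number of genes, and its groups still overlapped. It was the only gene of the 9 at an unadjusted p under 0.05 with this scaling, against 15.8% of genes higher and 1.42% lower. With this scaling the groups did not overlap for 1.25% of genes higher and 0.0534% lower in anti-CD3, and overlapped for all 9.

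Several of the 9 genes were high or low in the same libraries. Anti-CD3 1 had the lowest normalized count of any library for 5 of the 9 genes and was below the gene's mean for all 9, by 0.60 on average on the log2 scale. Anti-CD3 3 was highest for 4 genes and above the mean for 8 of the 9, all but Pdx1, by 0.55 on average. Relative to the pan-endocrine genes, anti-CD3 1 remained low for 9 of 9 genes, by 0.45 on average, and IgG 6 was low for 8 of 9, by 0.41. IgG 6 also had the highest summed level of the 20 immune markers, at 1051 CPM over the 19 tested, where anti-CD3 libraries had 34.4 to 277 CPM and the lowest IgG library 39.7 CPM. Anti-CD3 1 had the 277 CPM. IgG 5 had 275 CPM, and was above the gene's mean for 6 of the 9 genes, with an average deviation of 0.24. Relative to the pan-endocrine genes the average for IgG 5 was -0.13. The part of immune cells in these values was not tested.

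The spread within groups was then compared between genes, with no test. The SD of log2 CPM was larger in anti-CD3 than in IgG for 8 of the 9 genes, and for 40.3% of all genes tested. On the log2(normalized count + 1) scale the SD was largest for Mafa, at 0.92 in anti-CD3 against 0.48 in IgG, followed by Rfx6, at 0.72 in anti-CD3 against 0.44 in IgG, and Nkx6-1, at 0.66 in anti-CD3 against 0.36 in IgG. Rfx6 had the fewest counts, 17 to 164 per library. The SD was 0.22 in anti-CD3 against 0.30 in IgG for Pdx1, 0.33 in anti-CD3 against 0.25 in IgG for Isl1 and 0.33 in anti-CD3 against 0.28 in IgG for Pax6, so Pdx1 had the least spread in anti-CD3 and Isl1 in IgG.

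**Figure D4:**
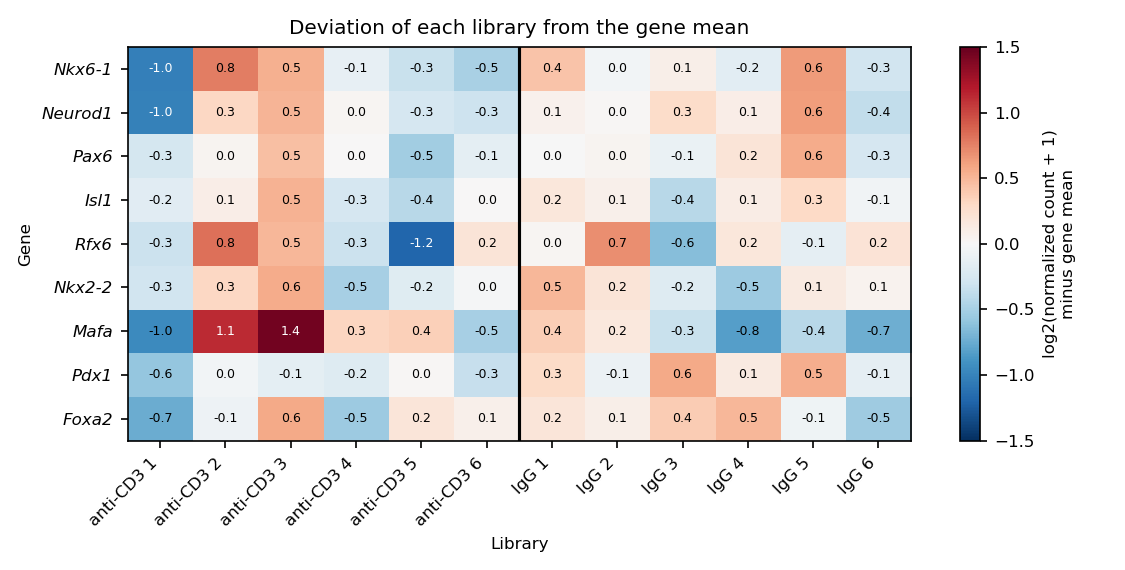
Deviation of each library from the mean of the gene over 12 libraries, as log2(normalized count + 1), for 9 genes and 6 anti-CD3 and 6 IgG libraries. The column of anti-CD3 1 is low for every gene, that of anti-CD3 3 is high for 8 of them, and the row of Mafa has the widest range.

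Similarity between profiles was measured as the root mean square difference between log2 CPM values brought to mean 0 and SD 1 over the 12 libraries, where 0 means equal profiles and 1.41 is the value for unrelated ones. These values are a description and the profiles share the same libraries. A nearest gene is the smallest of the values over all genes tested, so 1.41 is no reference for it. How close the nearest of as many unrelated genes would come was not tested. Among the 9 genes the closest pair was Nkx6-1 and Neurod1, at 0.414, followed by Isl1 and Pax6, at 0.606, and Neurod1 and Pax6, at 0.668. The most distant was Pdx1 and Rfx6, at 1.54, and Pdx1 and Mafa were at 1.37. The nearest of the 9 to Pdx1 was Neurod1, at 0.741.

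Of all other genes tested, the nearest to the mean profile of the 9 was Ffar1, the free fatty acid receptor of beta cells, at 0.351. Kif5c, a kinesin heavy chain, Ntrk2, a neurotrophin receptor, and Lmbr1 were among the nearest 5, at 0.377 to 0.398. The nearest gene to Nkx6-1 was Insm1, a zinc finger factor of endocrine differentiation, at 0.319. For Pdx1 it was Gpr161, a receptor of the primary cilium, at 0.299, for Neurod1 the kinase gene Stk32a, at 0.302, and for Pax6 the lysosomal membrane protein gene Scarb2, at 0.340. For the other 5 the nearest gene was farther, from 0.412 for Mafa, with Gtf2h1, a subunit of the transcription factor TFIIH, through Nkx2-2, with Kifc3, Isl1, with Gucy2c, and Foxa2, with Golim4, to 0.533 for Rfx6, with Col11a2.

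Other transcription factors of the islet were examined as a list of 30, of which 24 were tested. Of these, 8 had positive and 16 negative values (12 and 12 when scaled to pan-endocrine genes), 0 passed edgeR or DESeq2 over all genes, and the median was -0.23, or -0.00 when scaled to pan-endocrine genes. At an unadjusted p under 0.05, 3 were lower and 0 higher, against 8.68% of all genes lower and 9.68% higher. Of all genes, 55.2% had negative values, or 33.1% when scaled to pan-endocrine genes. Tshz1, a zinc finger factor, averaged 11.7 CPM in anti-CD3 and 16.2 in IgG, with -0.46 ± 0.20 (SE; edgeR adjusted p = 0.232). Bach2, also a B cell factor, was at -0.85 ± 0.37 (SE; edgeR adjusted p = 0.245). The most abundant were St18, at 0.21 ± 0.29, and Hnf4a, a nuclear receptor also made in other epithelia, at -0.28 ± 0.35 (SE). Neurog3, the factor of endocrine progenitors, named after its values were seen, had 52 counts over all 12 libraries and was not tested.

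Genes of beta cells, among them known targets of these factors, were listed next. Of 29 in the count file, 28 were tested, 6 with positive and 22 with negative values (14 and 14 when scaled to pan-endocrine genes), 0 passed edgeR or DESeq2, and the median was -0.20, or -0.02 when scaled to pan-endocrine genes. Ins2 averaged 9065 CPM in anti-CD3 and 7526 in IgG (0.27 ± 0.24, SE), and Ins1 averaged 2457 CPM in anti-CD3 and 2667 in IgG (-0.12 ± 0.25, SE). Rab3b, a secretory vesicle GTPase, was at -0.54 ± 0.20 and Gjd2, the connexin of beta cell gap junctions, at -0.58 ± 0.24 (SE; edgeR adjusted p = 0.187 and 0.215). Among 17 alpha, delta and PP cell genes, which share members with the transcription factor list, 16 were tested, 8 in each direction (11 positive and 5 negative when scaled to pan-endocrine genes), with a median of -0.02. Gcg averaged 4745 CPM in anti-CD3 and 4594 in IgG. The 24 pan-endocrine secretory genes, 3 of them also in the beta cell list, had 20 negative values (13 when scaled to 21 of them) and a median of -0.24, and 0 passed, with Chgb at -0.66 ± 0.25 (SE; edgeR adjusted p = 0.188).

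Of genes associated with loss of beta cell identity, 0 passed edgeR or DESeq2. Of 15 listed, 8 were tested, 5 with positive and 3 with negative values, and the median was 0.19. Ldha, lactate dehydrogenase, which beta cells normally keep low, was at 0.90 ± 0.37 (SE; edgeR adjusted p = 0.220), and is also made in other cell types. Scaled to pan-endocrine genes, all 8 had positive values, with a median of 0.43. With that scaling 33.1% of all genes had negative values, and the median of all genes was 0.17.

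Transcription factors of acinar cells were read in the same libraries. All 8 had positive values, with a median of 0.54, where 55.2% of all genes had negative values. Of the 8, 0 passed edgeR, against 0.0762% of all genes, and 1, Xbp1, passed DESeq2, against 3.78%. Their summed level was 441 to 734 CPM in anti-CD3 and 151 to 419 in IgG. The largest part was Xbp1, which averaged 348 CPM in anti-CD3 and 202 in IgG. Xbp1, the secretory stress factor, was at 0.79 ± 0.22, and Ptf1a, which defines acinar cells, at 1.34 ± 0.55 (SE; edgeR adjusted p = 0.108 and 0.228). Leaving out IgG 5 and IgG 6 gave a median of 0.25, and entering the mean acinar level in the fit gave -0.04. The 16 ductal markers, of which 14 were tested, had summed levels of 3831 to 6129 CPM in anti-CD3 and 1116 to 5227 in IgG, and each had counts in at least 1 library. Stromal markers (16 tested) summed to 90.4 to 379 CPM in anti-CD3 and 183 to 870.4 CPM in IgG, endothelial markers (12) to 109 to 252 CPM in anti-CD3 and 120 to 376 CPM in IgG, and neural markers (5 tested of 10) to 59.6 to 83.6 CPM in anti-CD3 and 59.6 to 69.5 CPM in IgG. The part of these cells in the values of the 9 genes was not tested, other than by the fit with the acinar level.

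**Figure D5:**
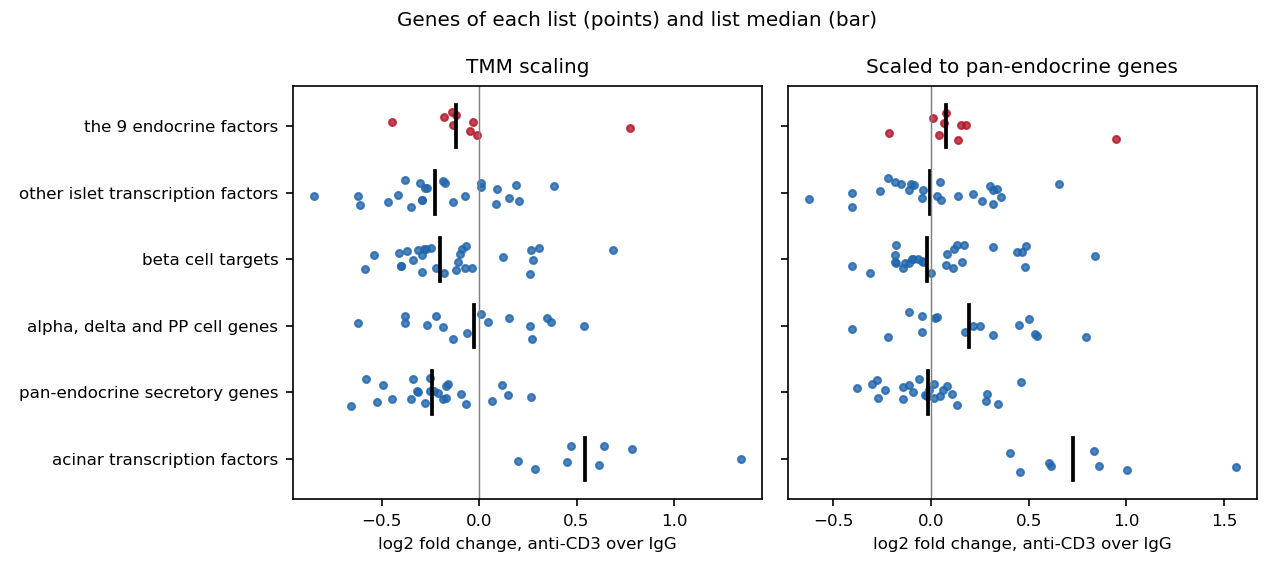
Log2 fold changes of anti-CD3 over IgG for tested genes (points) of 6 lists with list medians (bars), under TMM scaling and with libraries scaled to pan-endocrine genes. The median of the 9 endocrine factors is -0.12 under TMM and 0.08 under the other scaling, beside 0.54 for acinar factors under TMM.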

How the data were processed

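Polyadenylated RNA of 12 islet libraries, 6 from anti-CD3 treated and 6 from IgG treated NOD mice, was analysed from the deposited tables. Raw counts per gene were made by the authors with Trimmomatic 0.36, STAR 2.5.2b and featureCounts of Subread 1.5.2 on GRCm38 (mm10), per the submitters' processing notes. The deposited normalized signal is the authors' raw count divided by 1 size factor per library, which was checked on the values. The deposited log2 fold changes and p-values are the authors' own, made with DESeq2 per the submitters' processing notes, and 2935 adjusted p-values are given as NA. Every per-sample column matched a sample. The raw count column of anti-CD3 5 has the prefix "added-", which the labels do not explain, and its counts match the deposited normalized values in the same way as those of the other libraries.

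Raw counts were tested with edgeR 4.0.16 in R 4.3.3 (quasi-likelihood, robust, TMM factors, filterByExpr with a minimum count of 10 and a total of 15, Benjamini-Hochberg over 13115 genes, two-sided). DESeq2 1.42.0 and limma 3.58.1 (voom) were alternatives. The scaling to pan-endocrine genes equalised their mean log2 CPM (pseudocount 0.5). The edgeR fit with TMM factors was tested on simulated counts, and the other fits were not. Gene symbols came from GENCODE M21 for 49056 genes, from the authors' table for 8, and 251 had none. Named genes were the 9 factors, for each list the 2 with the smallest p and the 2 with the highest mean CPM (given in part), and the nearest profiles, of which some are not reported here. The 9 genes and the lists were chosen with earlier results of these data known.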

Additional observations from a re-analysis of the deposited data

How the results depend on the processing

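Results were recomputed under 24 settings, 12 of which left out 1 library each, and 0 of the 9 genes passed under any of them. Over all genes, 10 were called by edgeR, against 455 with DESeq2, 135 with limma-voom, 167 with no filter on low counts, 6 with upper-quartile factors, 5 without robust estimation, 3 when scaled to pan-endocrine genes, 1 without IgG 5 and IgG 6, 0 with the acinar level in the fit, and 0 to 203 when 1 library was left out (0 without anti-CD3 1, 5 or 6 or IgG 5, 203 without anti-CD3 2). With the replicate number as a block, 0 were called. Same-numbered libraries had correlations of -0.01, 0.14, 0.57, -0.20, -0.18 and 0.59 in their deviations over the 2000 most variable genes, 3 of 6 above 0.1, and differently numbered libraries -0.63 to 0.56, with 5 of 12 libraries closest to their own number. Not every pair was above 0.1, so the libraries were treated as sharing only a number. This rule cannot exclude that some of the pairs share more than a number. Signs changed in 25 of 216 values, none of them called. Scaling to pan-endocrine genes gave 0.079 for Nkx6-1, 0.18 for Nkx2-2, 0.012 for Neurod1, 0.16 for Isl1, 0.065 for Pax6, 0.14 for Rfx6 and 0.040 for Foxa2, and the acinar level in the fit gave 0.062 for Nkx2-2, 0.0056 for Isl1 and 0.082 for Rfx6. Leaving out 1 library gave -0.34 to 0.024 for Nkx6-1, -0.17 to 0.083 for Nkx2-2, -0.18 to 0.030 for Isl1 and -0.23 to 0.16 for Rfx6. The causes were not tested. Pdx1 stayed negative and Mafa positive in all 24 settings, at -0.54 to -0.22 and 0.49 to 0.95. Per length of the longest transcript, 5 of the 9 ranks in level changed, and with TMM CPM 0 did, while without anti-CD3 3, chosen after seeing the data, 2 did. Counts as low as 17 limit Rfx6 most.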
